A study of Bactrocera dorsalis with 4 samples.

Results

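The miRNAs described here are the names of miR-124, miR-137, miR-210, miR-219, miR-263a, miR-263b, miR-315, miR-929, miR-932 and miR-1000. They were chosen together as miRNAs of the nervous system or the sense organs of insects and other animals. No such role is given here for miR-315 or miR-929. All names were taken by number, with or without an arm, from the lists of known miRNAs of the oriental fruit fly *Bactrocera dorsalis*, leaving out entries marked New. This gave 18 names of 10 miRNA numbers among 165 known names. The name miR-210a carries a letter that the choice did not include, so it was not counted among the 18, but its values are given beside those of miR-210.

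The lists came from 4 small RNA libraries of adults aged 12 days, with 1 library per condition and no replicate. Ovaries and testes were each sequenced apart from the rest of the insect. The females and the males were what was left of the insect after the gonads were dissected out, and both are called bodies here. No strain, treatment or genetic change is named for any group, and how many insects were pooled in a library is not given in the sources used here. An entry is a single sequence at a single position, and once entries marked New were left out, the female list held 206, the male list 207, the ovary list 169 and the testis list 187. The lists give no amounts, so a name was scored only as listed or not listed, and a name that was not listed may still have been present below the depth of that library. The paper reports the fewest clean reads for ovaries and the most for males, and the part of depth in the listings was not tested. With 1 library per condition no test between conditions was possible, and fewer cells of a type and less RNA per cell cannot be told apart.

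A miRNA is cut from a hairpin precursor, and either the 5p or the 3p side of the hairpin can be loaded into the silencing complex as the mature strand. The bases near its 5′ end, called the seed, do most of the work of finding target mRNAs. Of the miRNAs treated here, miR-124 is a classic marker of neurons from flies to mammals, and miR-263a and miR-263b protect mechanosensory bristle cells from cell death in *Drosophila*. In *Drosophila*, miR-210 is known from photoreceptor cells, miR-1000 limits glutamate release from neurons and miR-315 can activate Wingless signalling. In mammals, miR-137 acts in neurons and miR-219 is best known from the glial cells that form myelin, and miR-932 has been tied to memory in the honeybee.

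The sequences that differed between bodies and gonads are shown first, since much of what follows turns on them. They are written 5′ to 3′ in the DNA letters of the lists, with the seed (bases 2 to 8) in capitals. The first 3 were listed in both bodies and in neither gonad, and miR-210a, which was listed in all 4 libraries, follows them for comparison.
miR-210: cTTGTGCGtgtgacagcggctatg
miR-210-5p: aGCTGCTGgccactgcacaagat
miR-929-3p: cTCCCTAAcggagtcagattg
miR-210a: cTTGTGCGtgtgacagcggct

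Among the names that were listed in both bodies but in a single gonad, miR-137-3p and miR-219 were listed in ovaries. The 4 that follow were listed in testes and not in ovaries.
miR-137-3p: tATTGCTTgagaatacacgtag
miR-219: tGATTGTCcaaacgcaattct
miR-263b: cTTGGCACtgggagaattcaca
miR-315-5p: tTTTGATTgttgctcagaaagcc
miR-929-5p: aAATTGACtctagtagggagt
miR-932-3p: tGCAAGCAttgtggaagtgat

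The nervous system and sense organ miRNAs were listed mostly in the bodies, and fewer of them were listed in the gonads. Females listed 16 of the 18 names and males 17, where 84.2% of all known names were listed in females and 84.2% in males. Ovaries listed 9 of the 18 and testes 10, where the shares over all known names were 75.2% and 82.4%. The 18 names were thus close to the background in the bodies, and at 50% and 55.6% they were below it in ovaries and testes. Several of the names are arms or forms of the same miRNA. Counts by miRNA number, given below, lay nearer to the background in the gonads. Both bodies listed 15 of the 18 names (76.4% of all known names), and both gonads listed 6 (69.7% of all known names). The 6 names in both gonads were also those listed in all 4 libraries, a pattern held by 65.5% of all known names.

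**Figure D1:**
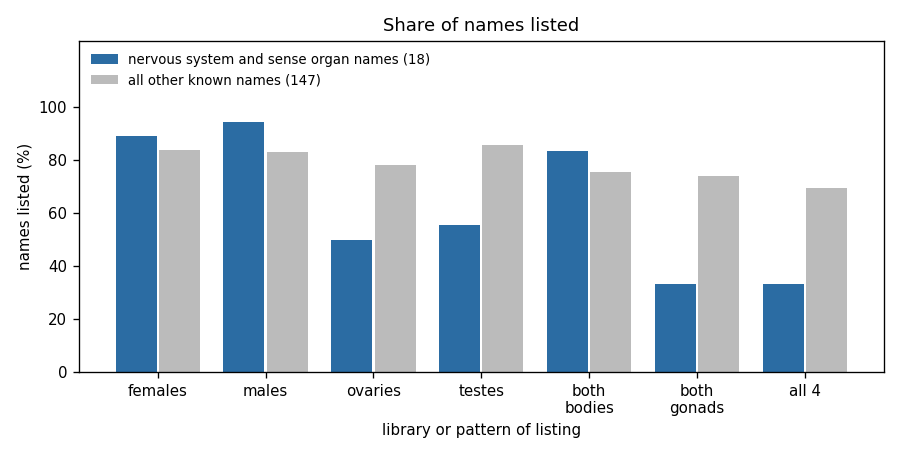
Share of names listed, in percent, for the 18 nervous system and sense organ names (blue) and the 147 other known names (grey), by library and by pattern over libraries. The blue bars reach 88.9% in females and 94.4% in males, and 50% in ovaries and 55.6% in testes, where the grey bars stand at 78.2% and 85.7%.

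The listing of each name is plotted by library. Every one of the 10 miRNA numbers had at least 1 name in females and in males, while 6 numbers had one in ovaries and 7 in testes. Over all 113 known numbers, taken as the names write them, females listed 87.6%, males 89.4%, ovaries 81.4% and testes 86.7%. With miR-210a joined to miR-210, whose arm it shares, 7 of the 10 numbers were listed in ovaries and 8 in testes. The shares over all 112 numbers were then 82.1% in ovaries and 87.5% in testes, so most of the gap seen by name in the gonads depended on how forms were counted. The body lists together held all 18 names. Females did not list miR-315-3p or miR-1000-3p, and males did not list miR-124-3p.

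**Figure D2:**
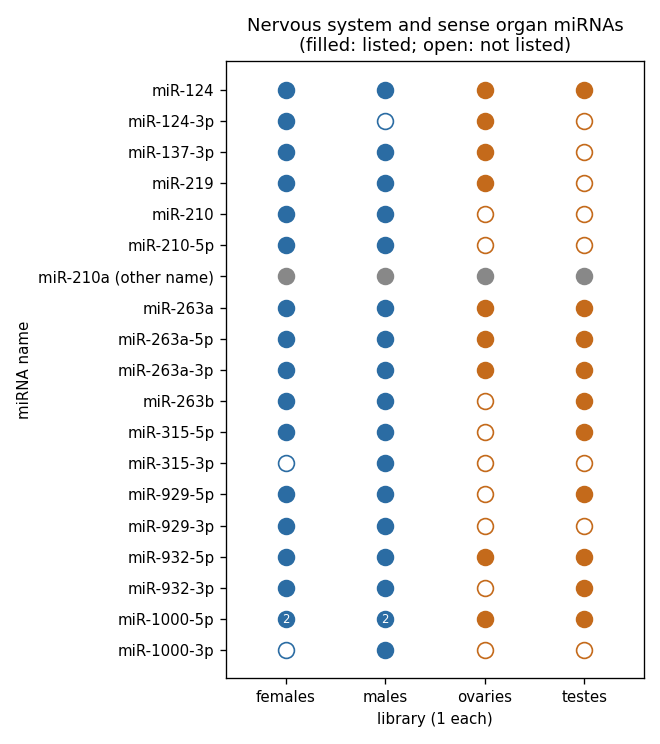
Listing of the 18 names and of miR-210a (grey) in the 4 libraries, with filled circles for names listed, open circles for names not listed, and blue for bodies and orange for gonads. The digit 2 marks miR-1000-5p, which had 2 entries in females and in males, and the open circles lie mostly in the ovaries and testes columns.

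The neuronal miR-124 was listed in every library. Its 20 nt sequence had a single entry in females, males, ovaries and testes alike. A longer sequence of 23 nt, named miR-124-3p, was listed in females and ovaries but not in males or testes, a pattern held by 1.21% of all known names. Both start at the same base and have the same seed, as shown here.
miR-124: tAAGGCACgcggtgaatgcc
miR-124-3p: tAAGGCACgcggtgaatgccaaa
The first 20 bases were shared, and the longer form added 3 bases at the 3′ end. The last of them was not the base of the hairpin (G23A, counted from 1 at the 5′ end, with the base of the hairpin first). The miR-124 hairpin is 82 bases long and lies on the minus strand of contig JFBF01000080.1 at 6511 to 6592. It is shown with the 5p and 3p sequences in capitals.
miR-124 hairpin: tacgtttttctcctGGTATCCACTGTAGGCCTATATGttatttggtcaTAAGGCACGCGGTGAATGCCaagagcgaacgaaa

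The other names known from neurons or glia in mammals, miR-137-3p and miR-219, were listed in females, males and ovaries and not in testes. This pattern was held by 2.42% of all known names, which is 4 names, and these 2 were among them. The miR-137-3p sequence is 22 nt long and was marked Yes, the mark of the lists for a sequence in miRBase. The miR-219 sequence is 21 nt long and was marked Diff, a mark the lists do not explain. Each had a single sequence and a single position, on contig JFBF01000025.1 at 1174569 to 1174693 and on contig JFBF01000126.1 at 423692 to 423769.

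For miR-210, known from *Drosophila* photoreceptors, listing in the gonads depended on the form. The 24 nt miR-210 and the 23 nt miR-210-5p were listed in females and males and in neither gonad. The 21 nt miR-210a was listed in all 4 libraries. It is the first 21 bases of miR-210, so the arm that miR-210 stands for was listed in ovaries and testes under this shorter form. The last base of miR-210 differs from the hairpin (T24G), while miR-210a and miR-210-5p match the hairpin throughout.

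Only 4 of the 165 known names, or 2.42%, were listed in both bodies and in neither gonad. The 3 that belong to the set described here were miR-210, miR-210-5p and miR-929-3p. The other one was miR-981-5p, which is named here because its pattern was seen. No name of the set was listed only in the gonads, which for both gonads without either body is a pattern that 2.42% of all known names had.

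The sense organ miRNAs divided by number. The names miR-263a, miR-263a-5p and miR-263a-3p were listed in all 4 libraries, and miR-263b was listed in females, males and testes but not in ovaries. The miR-263a and miR-263b sequences can be compared base by base.
miR-263a: aATGGCACtggaagaattcac
miR-263a-5p: aATGGCACtggaagaattcacggga
miR-263b: cTTGGCACtgggagaattcaca
Over the 21 bases of miR-263a, miR-263b differed at 3 positions (A1C, A2T and A12G, counted from 1 at the 5′ end, with the base of miR-263a first). One of these lies in the seed, so the seeds ATGGCAC and TTGGCAC are not the same. The 25 nt miR-263a-5p starts with the whole of miR-263a and adds 4 bases at the 3′ end, all of which match the hairpin. The opposite strand, miR-263a-3p, was marked Yes. The miR-263a hairpins were placed on contig JFBF01000022.1 and that of miR-263b on contig JFBF01000044.1 at 704216 to 704279, which at 64 bases was the shortest window in the set.

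**Figure D3:**
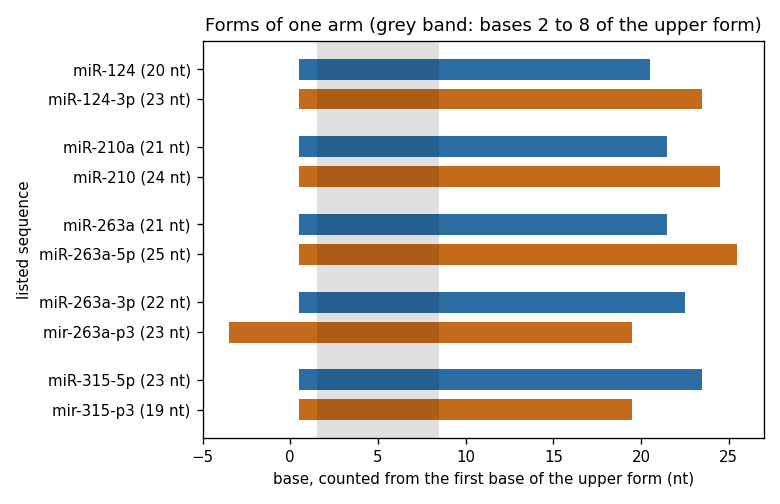
Extent in nt of paired sequence forms of the same miRNA number, with blue for the first form and orange for the second, aligned by the bases they share, and the grey band over bases 2 to 8 of the first form. The longer forms of miR-124, miR-210a and miR-263a share their first base with the shorter ones and add 3, 3 and 4 bases at the 3′ end, while mir-263a-p3 starts 4 bases earlier than miR-263a-3p.

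The next group was listed in testes and in both bodies but not in ovaries. It held miR-315-5p, miR-263b, miR-932-3p and miR-929-5p, which is 4 of the 18 names, and 6.06% of all known names had this pattern. For 3 of the 4 the other arm behaved differently. The 3p sequence of miR-315 was listed in males alone, miR-929-3p was listed in females and males, and miR-932-5p was listed in all 4 libraries.

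The arms of miR-929 therefore gave 3 libraries for 5p and 2 for 3p. The miR-929 hairpin is 88 bases long, lies on the minus strand of contig JFBF01000017.1 at 1951097 to 1951184, and is shown with both arms in capitals.
miR-929 hairpin: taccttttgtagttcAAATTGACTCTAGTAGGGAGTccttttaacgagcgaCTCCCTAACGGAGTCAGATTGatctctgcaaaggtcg
Both arms are 21 nt long. The 3p sequence was marked Yes and the 5p sequence Diff.

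For miR-932, tied to memory in the honeybee, the 23 nt 5p sequence was listed in every library. Its 21 nt 3p sequence was missing from the ovary list and present in the other lists. Ovaries were thus the only library in which a single arm of miR-932 was listed.
miR-932-5p: tCAATTCCgtagtgcattgcagt
miR-932-3p: tGCAAGCAttgtggaagtgat

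The neuronal miR-1000 had the most uneven arms. Its 5p sequence was listed in all 4 libraries, and its 3p sequence was listed in males alone, a pattern that 4.85% of all known names had and that miR-315-3p shared. Of the 18 names, miR-1000-5p was the only one with more than 1 sequence, whereas 51 of the 147 other known names had more than 1.
miR-1000-5p, contig form: aTATTGTCctgtcacagcagt
miR-1000-5p, arm 3R form: aTATTGGCctgtcacagccgt
miR-1000-3p: cTGCTGGGccggggcattaaca
The contig form was placed on the plus strand of contig JFBF01000020.1 at 1908097 to 1908179, was marked Yes and was listed in all 4 libraries. The second form was placed on the minus strand of 3R at 21414581 to 21414680, was marked Diff and was listed in females and males. 3R is the name of a *Drosophila* chromosome arm, and the genome build behind it is not given in the sources used here. The forms differ at 2 positions (T7G and A19C, with the base of the contig form first). The first of these lies in the seed, which reads TATTGTC in the contig form and TATTGGC in the other. No gonad library listed the second form.

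Arms could be compared for the numbers whose names carry both. In any library, 5 of the 10 numbers (miR-263a, miR-315, miR-929, miR-932 and miR-1000) had both a 5p and a 3p name, and over all known miRNA numbers the share was 39.8%. Numbers were taken as the names write them. Arms of the same hairpin with different numbers, such as miR-281-2-5p and miR-281-3p, were not counted as a pair, so the shares over all numbers may be too low. Males listed both arms for all 5 of them, females for 3, testes for 2 and ovaries for 1. The shares over all known numbers were 28.3% in males, 29.2% in females, 29.2% in testes and 23% in ovaries. In ovaries the number with both arms was that of miR-263a, and in testes those of miR-263a and miR-932.

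The 5p and 3p sequences of the set can form duplexes. The pairing of 8 pairs of arms was predicted with RNAduplex, using miR-210a for the 3p side of miR-210 and the entries marked New for the 5p sides of miR-124 and miR-137. For miR-263a the 21 nt form was paired with miR-263a-3p, and for miR-1000 the contig form of the 5p sequence was used. The longer miR-263a-5p and the entry mir-263a-p3, marked New, were not paired. The strongest predicted pairing was that of miR-210, at -28.8 kcal/mol, and the weakest that of miR-263a, at -15.3 kcal/mol. The median of the 8 was -21.2 kcal/mol. In 48 hairpin windows of other known miRNAs with both arms listed, the median was -19.6 kcal/mol, the lowest value -27.4 kcal/mol and the highest -6.4 kcal/mol. The most base pairs were predicted for miR-315, with 20, and the fewest for miR-929, with 14. The other windows had 10 to 18 base pairs, so miR-315, and miR-210 and miR-932 with 19 each, lay above that range. For the other windows the first listed sequence of each arm was taken, without entries marked New. Some miRNAs, such as miR-276b, had several windows. In energy, miR-210 lay below the lowest of the other windows, and the other 7 pairs lay within their range. These values describe sequence only and were not set against listing.

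**Figure D4:**
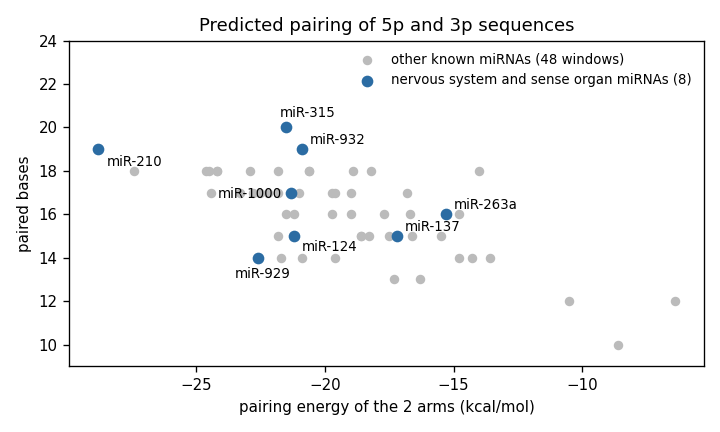
Predicted pairing energy in kcal/mol and number of base pairs (on the axis, paired bases) for 8 pairs of arms of the set (blue, named) and for 48 windows of other known miRNAs (grey). The miR-210 pair lies farthest to the left at -28.8 kcal/mol, and miR-315 has the most base pairs, 20.

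In sequence, the 18 names held 19 distinct sequences, the shortest of 20 nt and the longest of 25 nt. Their median length of 22 nt was the same as the median of the 216 sequences of other known miRNAs. Of the 19, 7 began with T, 6 with A, 6 with C and none with G. The share that began with T was 36.8%, against 54.6% of the other sequences. GC content ran from 31.8% in miR-315-3p to 63.6% in miR-1000-3p, with a median of 45.5% against 40.9% for the others. In the set, 4 sequences were marked Yes, those of miR-137-3p, miR-263a-3p, miR-929-3p and the contig form of miR-1000-5p. That is 21.1% of the set and 25.5% of the other entries.

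The 19 sequences fell into 17 seed groups, and the groups with more than 1 name were miR-124 with miR-124-3p and miR-263a with miR-263a-5p, which are forms of one arm. The one other known miRNA with a seed of the set was miR-210a, which shares TTGTGCG with miR-210. Predicted miRNAs shared 3 of the 17 seeds, PC-3p-75464_18 that of miR-929-5p, PC-3p-64888_22 that of miR-932-3p and PC-3p-71396_19 that of miR-315-5p. The entry mir-315-p3, marked New, also has the seed of miR-315-5p. No miRNA number of the set shared its seed with another.

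In position, the 10 numbers lay on 10 different contigs, 8 of them on the minus strand. None of the 10 had another known miRNA with its start within 10000 bases, with miR-210a counted as miR-210. Of 102 other known numbers, taken as the names write them, 56.9% had one. That share is too high as a count of separate miRNAs. Arms of the same hairpin with different numbers, such as miR-281-2-5p and miR-281-3p, were counted there as neighbours. Contigs and *Drosophila* arms were counted alike, and a neighbour past the end of a contig cannot be seen. The miR-124 window is listed from base 6511, so fewer than 10000 bases of its contig lay on one side. The nearest known neighbours on contigs were miR-31a-5p at 533511 bases from miR-137, miR-285-3p at 818542 bases from miR-263b, and miR-13b-3p at 886208 bases from miR-1000. For miR-263a it was miR-2b-2-5p, at 1307858 bases or more. On the contigs of miR-124, miR-210, miR-219, miR-315, miR-929 and miR-932 no other known miRNA was listed. Under *Drosophila* arm names the set had 1 of its 19 entries (5.26%), where the other known miRNAs had 33.3%. Exon and intron annotation was not used here.

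Positions on the minus strand are uncertain at the scale of a hairpin. Where deposited or supplementary hairpins shared at least 30 bases on the same contig and strand, the places the lists imply for the shared bases could be compared. The 3 pairs on the plus strand gave the same place, and the 6 pairs on the minus strand differed by 4 to 90 bases. In the set these were the miR-210 hairpins, which differed by 38 bases over 81 shared bases, and those of miR-932, which differed by 77 bases.

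Other miRNAs known from *Drosophila* neurons or sense organs gave a different listing. A list with let-7, miR-7, miR-8, miR-9a, miR-34, miR-87, miR-100, miR-125, miR-276a, miR-276b, miR-279 and miR-996 held 24 names, of which 20 were listed in all 4 libraries, compared with 6 of the 18. Ovaries listed 21 of these 24 and testes 23. Over all known names the shares were 65.5% in all 4 libraries, 75.2% in ovaries and 82.4% in testes. The comparison list was thus above the background, with 83.3% of its names in all 4 libraries, where the 18 names were below it. The names not listed in ovaries were miR-87, miR-100-3p and miR-276b-5p. Many of these miRNAs are also known from other tissues.

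Markers of cell types were looked up by library. Those of neurons (miR-124) and of sense organs (miR-263a and miR-263b) belong to the set, so they cannot check its label. The listing of miR-124, in both bodies and both gonads, did not separate bodies from gonads. As given above, miR-263a was listed in all 4 libraries and miR-263b in all but ovaries. The muscle names miR-1-3p and miR-1-5p were also listed in all 4 libraries. The other muscle marker looked for, miR-133, had no name among the known names of any library. Of 8 names known from ovary or early embryo, ovaries and testes listed 8 each, females 7 and males 6. Over all known names the shares were 75.2% in ovaries, 82.4% in testes, 84.2% in females and 84.2% in males. Testes listed as many of these names as ovaries, so the names did not separate the gonads. The part of shared tissue between the libraries in these listings was not tested.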

How the data were processed

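Small RNA was sequenced from females and males after removal of the gonads, and from the gonads, with 1 library each. Per the labels, the authors analysed reads with ACGT101-miR version 4.2. They removed adaptors and reads matching mRNA, Rfam and Repbase, and matched the rest to miRBase. The deposited lists give the name, sequence, length in nt, position and miRBase mark (Yes, Diff or New) of each entry, with no amounts, so depth per entry is unknown and no interval is given. Predicted miRNAs were deposited in a table for all libraries combined.

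Names were counted as listed or not, without New entries. Every name found by number was named, and other known miRNAs where they shared a seed or a neighbourhood of 10000 bases or belonged to a comparison list. Members and lists were chosen with earlier results of these data known. Hairpin sequences came from the study's supplementary table. Pairing was predicted with RNAduplex 2.7.2. Tables were made with Python 3.11.15 and pandas 2.3.3, and plots with matplotlib 3.10.9. The functions were tested on 28 made-up cases, and 28 came out as planted. Alternatives were other ways of counting names, joined arms, marks, seeds and distances.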

Additional observations from a re-analysis of the deposited data

Results flagged for a closer look

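Signals outside the names counted above were found in the entries marked New, where 5 names carried a number of the set. On the contig of the same miRNA were mir-124-p5, listed in females and males, mir-137-p5, listed in males, and mir-263a-p3, listed in females, males and ovaries. The sequence of mir-263a-p3 starts 4 bases before miR-263a-3p, shares 19 bases with it and so has another seed. The other 2, mir-219-p3 and mir-315-p3, were placed on contigs that hold no hairpin of their number in the set, and both were listed in females and testes. The 19 nt mir-315-p3 shares its first 17 bases and its seed with miR-315-5p, although its name gives the other arm.
miR-263a-3p: cGTGATCTcttagtggcatcta
mir-263a-p3: tTCCCGTGatctcttagtggcat
mir-315-p3: tTTTGATTgttgctcagtt

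In the table of predicted miRNAs, 1 entry of 22 nt, PC-3p-64888_22, held all 21 bases of miR-932-3p and 1 base more at the 3′ end. Its hairpin was the same as that of miR-932 over 91 bases, at a listed position 77 bases away. The table covers the 4 libraries combined, so it gives no library for this sequence.
predicted entry: tGCAAGCAttgtggaagtgata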

How the results depend on the processing

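With entries marked Yes alone, 4 names were left, of which females listed 4, males 4, ovaries 3 and testes 2. Both bodies then listed 4, both bodies and neither gonad 1, and all 4 libraries 2. Counted as miRNA numbers, females and males each listed 10, also with miR-210a joined to miR-210. Without entries under *Drosophila* arm names, 0 names had more than 1 sequence. These 12 values differed by more than 1.5 times from those reported, and the other 62 did not, among them 6 numbers in ovaries and 7 in testes. Counts were compared here and not shares, and the sets counted differed in size. A count could thus differ through the size of its set alone, and the 62 do not show that the shares were unchanged. With entries marked New, 7 numbers had both arms. Chosen after seeing the data, joining miR-210a to miR-210 gave 7 numbers in ovaries and 8 in testes, adding miR-210a gave 10 names in ovaries and 11 in testes, leaving out the longer forms miR-124-3p, miR-210 and miR-263a-5p gave 7 and 9, and leaving out miR-263a-3p and miR-263a-5p gave 7 and 8. No paired analysis was possible because the lists hold no amounts and the labels do not say that a gonad library came from the insects of a body library. With 1 library per condition, no library could be left out.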
